A study of Arabidopsis lyrata subsp. lyrata and Arabidopsis thaliana with 7 samples.

Results

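The updated annotation of *Arabidopsis lyrata* holds 1492 protein coding gene models that consist of a single exon, with no transposable element (TE) marked and no *A. thaliana* ortholog listed. The paper identified orthologs as reciprocal best hits between proteins, a rule that can leave a further copy of a gene without one. Models without ortholog are meant here in this sense. The 1492 models were taken from the deposited version-2 annotation as gene lines with AUGUSTUS as their source, without the field that marks a TE, without a listed *A. thaliana* ortholog, and with 1 exon in every transcript. They are 5.49% of the 27168 AUGUSTUS models without a TE, in a table of 32793 gene models. For comparison, the same annotation has 5223 multi-exon models without ortholog or TE, 3412 single-exon models with an ortholog and 17041 multi-exon models with an ortholog, again without a TE.

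Transcript levels came from poly-A RNA of *A. lyrata* subsp. *lyrata* MN47, a North American accession, in 5 untreated libraries: 2 of complete inflorescences of flowering plants, 1 of dissected shoot apices and 2 of vegetative rosettes. Apices and rosettes were from young plants and all plants were grown in soil under long days. A further pair of libraries, from *A. thaliana* Col-0 rosettes, holds no values for these models and was not used here. The labels do not say whether libraries of a tissue came from separate plants, so the p-values measure the spread between these libraries only. The shoot apex had 1 library, and its spread was taken from the other tissues.

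A gene model without an ortholog in a close relative can be a gene gained or lost since the species split, a diverged copy, a fragment of another gene, a long non-coding RNA on which the gene finder placed a short reading frame, or a prediction that is not transcribed. An intronless model offers fewer checks than a spliced one, since no read can span a splice junction and so show the strand and the extent of the transcript. The annotation kept AUGUSTUS models that had reads or overlapped an earlier model, so the presence of reads in some tissue was in part a condition for being in the set. The reads were not strand specific. No sequence of *A. lyrata* was used, and so none is printed for these models.

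Between 10556736 reads (shoot apex) and 28347972 reads (inflorescence replicate 1) were counted in gene models per library. In the inflorescences, all 7 floral organ identity genes of the marker list were far above the other tissues, with summed levels of 1531 and 1397 CPM (reads scaled to a common library size with TMM factors), against 1.08 CPM in the shoot apex and 6.49 and 0.831 CPM in rosettes. The pollen list (5 of 6 markers with a model) summed to 118 and 129 CPM in inflorescences, 0.79 CPM in the apex and 0.173 and 0.208 CPM in rosettes. The meristem list was higher in the shoot apex, with 159 CPM, against 11.1 and 4.98 CPM in rosettes, but inflorescences had 123 and 129 CPM. KNAT1 (67.2 CPM) and STM (42.2 CPM) were its highest members in the apex. WUS had 0.144 CPM in the apex, against 6.11 and 8.72 CPM in inflorescences, and CLV3 had only 0.215 CPM in the apex. Unlike the other markers of the tapetum list, MS1 was higher in rosettes (20.4 and 30.2 CPM) than in inflorescences (16.9 and 15.8 CPM). The rosette libraries differed from each other: 78 models had at least 50 reads in rosette 1 and at most 1 in rosette 2, and 1 model the reverse. In bulk tissue, more cells of a type and more RNA per cell cannot be told apart.

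The models were short, and their coding regions shorter still. The median gene length was 865 bp, with quartiles of 627 and 1291 bp and a range of 233 to 6229 bp. The median coding size was 153 codons, stop included, against 216 codons in multi-exon models without ortholog and 267 codons in single-exon models with an ortholog. Under 100 codons were 453 models (30.4%), against 21.8% and 7.15% in those sets and 2.95% in multi-exon models with an ortholog. Most models were nevertheless formally complete, with an annotated start codon in 1472 and a stop codon in 1477. The coding region filled a median of 64.4% of the exon, and less than 25% of it in 152 models (10.2%), compared with 9.38% of multi-exon models without ortholog and 0.322% of single-exon models with one. The low coding share was therefore seen in both sets without ortholog.

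**Figure D1:**
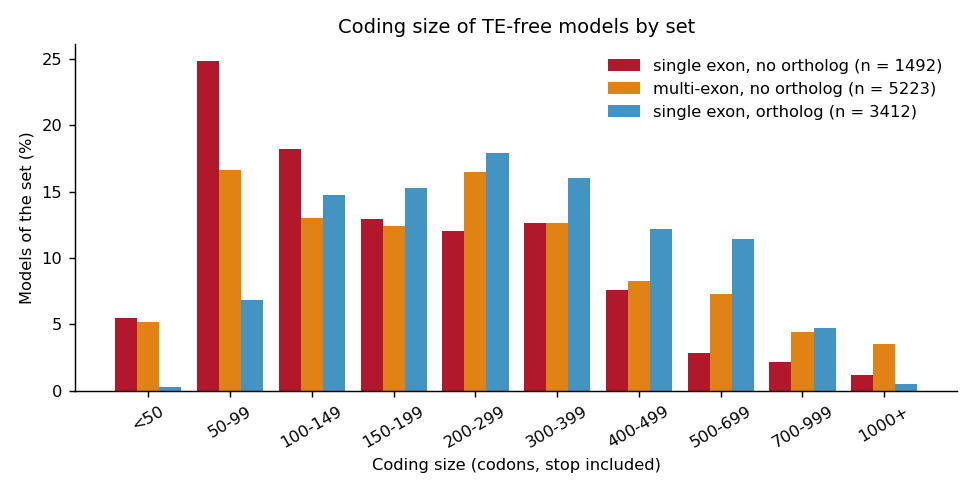
Coding size in codons (horizontal axis, unequal bins) of the 1492 single-exon models without ortholog, the 5223 multi-exon models without ortholog and the 3412 single-exon models with an ortholog, as a percentage of each set. The fullest bin of the first set is 50 to 99 codons with 24.9% of its models, where single-exon models with an ortholog have 6.86%.

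At the short end, AL880U10010 (scaffold 880, 1187 to 1739) has an exon of 553 bp with 18 codons and 27, 28, 6, 16 and 11 reads in inflorescence 1 and 2, shoot apex and rosette 1 and 2. At the long end, AL2G30060 (scaffold 2, 15180822 to 15187050) has 1987 codons and 1, 1, 0, 2 and 0 reads in the same order. AL2G20790 (scaffold 2, 9288998 to 9293963), with 1535 codons, had 1 read, in the shoot apex. The shortest coding region thus had reads in every library, while the longest 2 were at or below the floor of 3 reads. The other long model, AL4G14970 (scaffold 4, 3083180 to 3087968), with 1503 codons, had 68 and 166 reads in the inflorescences and none elsewhere (at least 13.3-fold higher than in rosettes, adjusted p = 0.0266 by the edgeR test described with the tissue comparisons).

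The models were spread over the whole genome. On the 8 chromosome scaffolds they made up 3.81% (scaffold 7) to 5.50% (scaffold 3) of the AUGUSTUS models, and scaffold 3 had the most per length, with 9.2 per Mb, against 5.93 per Mb on scaffold 8. On the small scaffolds not joined to a chromosome lay 155 models (10.4%), where they were 15.5% of the AUGUSTUS models. Multi-exon models without ortholog had a like share there (11.2%), while single-exon and multi-exon models with an ortholog had 1.06% and 0.91%. Among the 10 flanking models, a mean of 1.53 contained a TE, against 1.58 around multi-exon models without ortholog and 1.05 around single-exon models with one. Over 183 windows of 1 Mb with at least 20 models, the share of these models and the share of TE-containing models had a Spearman rho of 0.455, a description in which both shares have the number of models in the window as their denominator. The fullest window, on scaffold 1, held 24 of them among 198 AUGUSTUS models.

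Most models stood alone, with a median gap of 585 bp to the nearest model. Another model overlapped 30 of them, 21 on the opposite strand, and for those the reads of both partners cannot be told apart. In gene order, 1232 had no other member beside them, and the others formed 106 pairs, 12 runs of 3 and 3 runs of 4. The protein coding genes of the *A. thaliana* annotation were used to ask what lies at the corresponding place. Other kinds of gene, such as those of non-coding RNA, were not looked at. In 577 cases (38.7%) the orthologs of the nearest flanking models are direct neighbours among these genes, so that no annotated protein coding gene of *A. thaliana* lies in the place of the *A. lyrata* model. In 552 cases (37.0%) 1 to 5 *A. thaliana* genes lie in between, and in 479 of these at least 1 is not listed as the ortholog of any *A. lyrata* model. Multi-exon models without ortholog were split in much the same way, with 35.7% adjacent and 39.0% with 1 to 5 genes in between, whereas single-exon models with an ortholog, whose own partner is in the gap, had 2.67% adjacent.

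A model is called expressed here if at least 5 reads were counted for it, and 1011 of the 1492 models (67.8%) were expressed in 1 or more libraries. Another 214 had 1 to 4 reads at most, and 267 (17.9%) had no read in any library, which at these depths allows a level of up to 3 reads, or 0.0945 to 0.311 CPM by library. The expressed share was lower than in multi-exon models without ortholog (75.6%), single-exon models with an ortholog (89.8%) and multi-exon models with an ortholog (95.9%). In single libraries, 879 and 941 models were expressed in the inflorescences, 627 in the shoot apex and 592 and 519 in rosettes. At the depth of the shallowest library by total reads, the shoot apex, 718 and 805 models would be expected to pass in the inflorescences and 556 and 497 in rosettes. With totals matched, the inflorescences still had the highest counts and the rosettes the lowest. On the TMM scale, however, 3 reads were 0.215 CPM in the apex and 0.259 and 0.311 CPM in rosettes. Rosettes were thus the least sensitive libraries on that scale, which the matching of totals does not adjust. The average over the 5 libraries was 47.7% of models, which is 11.5 percentage points below multi-exon models without ortholog and 26.8 below single-exon models with an ortholog. The difference had the same sign in 5 of 5 libraries for each set (exact permutation test of the sign over libraries, two-sided p = 0.0625, the smallest that 5 libraries allow). Since the same models were counted in each library, this p-value cannot test the difference between the sets. The limit of 5 reads also takes no account of model length, which differs between the sets.

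**Figure D2:**
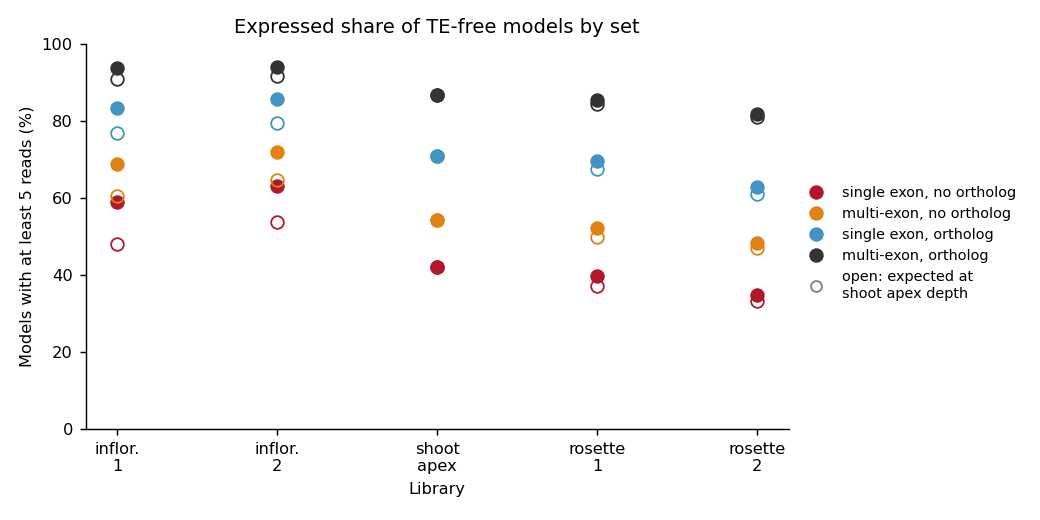
Percentage of models with at least 5 reads in each library (inflorescence 1 and 2, shoot apex, rosette 1 and 2) for the 4 sets of TE-free models. Filled circles are the observed shares and open circles the shares expected at the depth of the shoot apex, matched on total reads without TMM factors. Single-exon models without ortholog are lowest in every library, between 34.8% and 63.1% as observed.

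The 1492 models took up 1.68% and 1.78% of the counted reads in inflorescences, 1.85% in the shoot apex and 0.911% and 1.13% in rosettes. Exact 95% intervals cover counting error only and were narrow, for example 1.84 to 1.86% in the apex. Both inflorescence shares lay above both rosette shares, by 0.711 percentage points on average, which 2 libraries against 2 cannot test below p = 0.333 (exact permutation test, two-sided). These are shares of raw totals. The TMM factors, not used for them, were 1.12 and 1.17 in inflorescences, 1.32 in the apex and 0.801 and 0.722 in rosettes. Scaling with these factors lowers the inflorescence shares and raises the rosette shares, so the separation depends on the scaling. A few models carried much of the reads of the set: the 10 with most reads held between 32.2% (rosette 1) and 43.7% (inflorescence 1) of them, and 17 to 26 models held 50%. Among expressed models, the median level per length was 2.09 and 2.1 CPM per kb of exon in inflorescences, 3.55 in the shoot apex and 4.25 and 5.52 in rosettes. This order depends on the limit of 5 reads, which admits weaker models in the deeper inflorescence libraries. Over all 1492 models the medians ran the other way, with 0.353 and 0.563 CPM per kb in inflorescences, 0.0995 in the apex and 0.0854 and 0 in rosettes. The median of expressed models was below the other sets in 5 of 5 libraries. Against multi-exon models without ortholog the mean difference was 1.56 CPM per kb (exact permutation test over libraries, p = 0.0625, with the same models counted in each library, so no test of the sets).

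The models with the smallest reading frames stood apart from the rest of the set. Of the 82 models under 50 codons, 72 (87.8%) were expressed in at least 1 library and 60 (73.2%) in all 5, against 35.3% of models with 50 to 99 codons, 24.3% with 100 to under 300 codons and 29.7% with 300 codons or more. Their median level was 5.97 and 5.89 CPM per kb in inflorescences, 6.07 in the shoot apex and 6.47 and 7.59 in rosettes. In the other size groups, no library had a median above 0.823 CPM per kb. These models are not short as transcripts: their median exon was 866 bp, of which 14.7% was coding. They made up 11.5% and 12.4% of the reads of all 1492 models in inflorescences, 25.2% in the apex and 19.9% and 23.3% in rosettes. The group of models with a coding share under 25% gave a like picture, with 70.4% of 152 expressed in all 5 libraries. Leaving out any 1 library gave 60 to 63 of the 82 in every remaining library, a count that can only stay or rise when a library is left out.

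**Figure D3:**
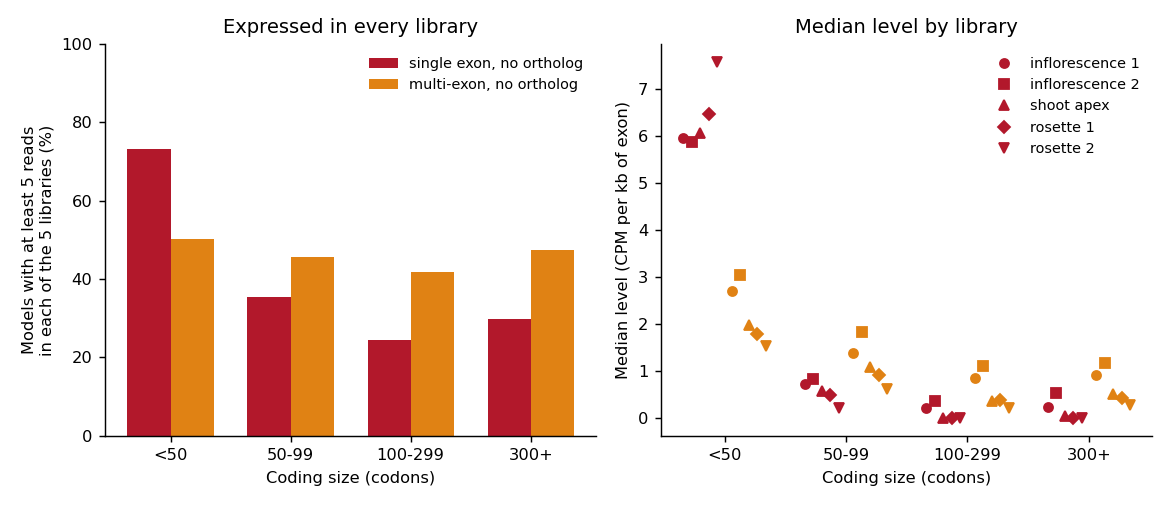
Left, percentage of models with at least 5 reads in each of the 5 libraries by coding size, for single-exon and multi-exon models without ortholog; right, median level in CPM per kb of exon in each library (symbols), in the same colours. Single-exon models under 50 codons reach 73.2% and 5.89 to 7.59 CPM per kb, and multi-exon models under 50 codons 50.2% and 1.52 to 3.04 CPM per kb.

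The 271 multi-exon models under 50 codons were also the most widely expressed size group of their set, but with a smaller distance to the rest: 50.2% were expressed in all 5 libraries, compared with 41.8% to 47.5% in the larger size groups. Single-exon models with an ortholog had only 10 models under 50 codons, 50% of them expressed in all 5 libraries. Their medians were 6.39 and 7.29 CPM per kb in inflorescences, 1.32 in the apex and 2.35 and 4.41 in rosettes. In that set the group of 300 codons or more was the most widely expressed, with 69.4% in all 5 libraries. Models had entered the annotation on the basis of reads or of an earlier model, and the part of that choice in these shares was not tested.

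Among the models with most reads in the shoot apex and in rosettes, several had under 60 codons. AL1G35540 (scaffold 1, 10013957 to 10015029), with 51 codons in an exon of 1073 bp, had 13523 and 13179 reads in inflorescences, 12474 in the shoot apex and 4897 and 2922 in rosettes. On one side it is flanked by the ortholog of SUC2, the phloem sucrose transporter. It was high in every library, at 397 and 404 CPM per kb in inflorescences, 834 in the apex and 395 and 283 in rosettes, and no comparison of tissues passed the test (adjusted p 0.0679 to 0.477 by edgeR's quasi-likelihood test with Benjamini-Hochberg adjustment over all models tested). AL3G35650 (scaffold 3, 9812041 to 9812715, 46 codons) had 3800 and 4117 reads in inflorescences, 8697 in the apex and 1920 and 3742 in rosettes. AL5G10600 (scaffold 5, 303703 to 305030, 42 codons), next to the ortholog of RGA1, a DELLA repressor of gibberellin responses, had 4939 and 4644 reads in inflorescences, 6651 in the apex and 1300 and 2347 in rosettes. Both models were highest in the apex library, and no comparison passed the test (adjusted p 0.0626 to 0.718, edgeR).

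Other models with most reads in rosettes were lower in inflorescences. AL5G14490 (scaffold 5, 2616930 to 2617842, 37 codons) averaged 141 ± 26.8 CPM in inflorescences and 406 ± 100.2 CPM in rosettes (SD, n = 2 each), with 370 CPM in the apex. AL6G50560 (scaffold 6, 24284730 to 24285546, 40 codons) averaged 215 ± 71.1 CPM in inflorescences and 695 ± 259.7 CPM in rosettes (SD, n = 2 each), with 293 CPM in the apex. Both fell in inflorescences relative to rosettes, AL5G14490 with a log2 fold change of -1.52 (SE 0.28, adjusted p = 0.0206, edgeR) and AL6G50560 with one of -1.70 (SE 0.40, adjusted p = 0.0389). AL2G20670 (scaffold 2, 9202293 to 9203217, 58 codons) was the model with most reads in rosettes, 6016 and 13466, but with 1327 and 5009 reads its inflorescence libraries were far apart and the fall did not pass the test (adjusted p = 0.0562).

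Differences between tissues could be tested for 831 of the models (55.7%), those with enough reads for the fit of all 5 libraries, in which 25465 models were tested. Since passing the filter depends on being expressed somewhere, these 831 do not stand for all 1492. Relative to rosettes, 183 models rose in inflorescences (22.0% of the 831, where 17.6% of all tested models rose) and 106 fell (12.8%, where 16.7% of all tested models fell) at an adjusted p under 0.05 by edgeR. The median log2 fold change was 0.40, compared with 0.09 over all tested models. With library totals in place of TMM factors, the median over all tested models moved to 0.68 and that of these models to 0.98, and 307 rose (36.9%, against 38.6% of all tested models) and 80 fell (9.63%, against 11.2%). The higher share of rises in these models than in all tested models thus turned round with that scaling. Without inflorescence 1 or inflorescence 2, far fewer models were called, both in this set and among all tested models. The median log2 fold change of the set was then 0.42 and 0.19, against 0.09 and 0.07 over all tested models. Without rosette 1, rises were less frequent in the set than among all tested models, so that the order of the shares of rises turned round here too. It did not turn round without rosette 2.

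The 3 models with most reads in inflorescences lay where *A. thaliana* has genes of the anther or of pollen. AL3G27460 (scaffold 3, 6460431 to 6462141, 442 codons) had 71342 and 80567 reads in inflorescences, 16 in the shoot apex and 5 and 3 in rosettes, which made it the model of this set with most reads, 14.9% and 17.4% of all reads of the set in inflorescences. It was 12.64 higher on the log2 scale in inflorescences than in rosettes (SE 0.39, adjusted p = 0.00245, edgeR). It lies between orthologs of AT3G15395 and AT3G15410, where *A. thaliana* has ATA20, a gene of the anther tapetum. The annotation lists ATA20 as the ortholog of another model, AL230U10010, on the unanchored scaffold 230 (907 to 3241), which had 52448 and 59362 reads in inflorescences, 53 in the apex and 39 and 32 in rosettes. Both models were thus nearly confined to inflorescences in these libraries.

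AL4G44700 (scaffold 4, 22875334 to 22876558, 318 codons) and AL4G44690 (scaffold 4, 22874537 to 22875268, 223 codons) lie 65 bp apart on the same strand. The first had 46752 and 31355 reads in inflorescences, 0 in the shoot apex and 0 and 1 in rosettes. The second had 17823 and 15282 reads in inflorescences and none in the other libraries. At this place *A. thaliana* has VGDH1 and VGD1, pectin methylesterases of pollen and the pollen tube, and neither is listed as an ortholog of any *A. lyrata* model. Against the floor of 3 reads per library, AL4G44690 was at least 1864-fold higher in inflorescences than in rosettes and at least 2470-fold higher than in the apex (adjusted p = 0.00245 and 0.00783, edgeR), and AL4G44700 was at least 5813-fold higher than in the apex (adjusted p = 0.00783).

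The other strongest rises had no reads in apex and rosettes, or nearly none. AL4G38530 (scaffold 4, 20514172 to 20514620, 62 codons) had 17041 and 14315 reads in inflorescences, 1 in the apex and 0 and 2 in rosettes (adjusted p = 0.00245 against rosettes). AL2G14430 (scaffold 2, 2412571 to 2413180, 82 codons), between the orthologs of TIM13 and RALFL9, which are neighbours in *A. thaliana*, had 13228 and 11077 reads in inflorescences and 0 elsewhere. AL5G40220 (scaffold 5, 19368408 to 19368801, 46 codons) had 5886 and 5143 reads in inflorescences and 0 elsewhere. This is a small reading frame unlike most of its size, as it was seen in 1 tissue only. AL7G22660 (scaffold 7, 5343481 to 5345104, 125 codons), beside the ortholog of LCR25, a cysteine-rich secreted peptide, had 2357 and 2727 reads in inflorescences, and AL1G38150 (scaffold 1, 11198265 to 11199056, 155 codons) had 2146 and 2511, both with 0 elsewhere. Relative to rosettes the lower bounds of the fold were 1368 for AL2G14430, 621 for AL5G40220, 287 for AL7G22660 and 263 for AL1G38150 (adjusted p 0.00245 to 0.00247, edgeR).

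**Figure D4:**
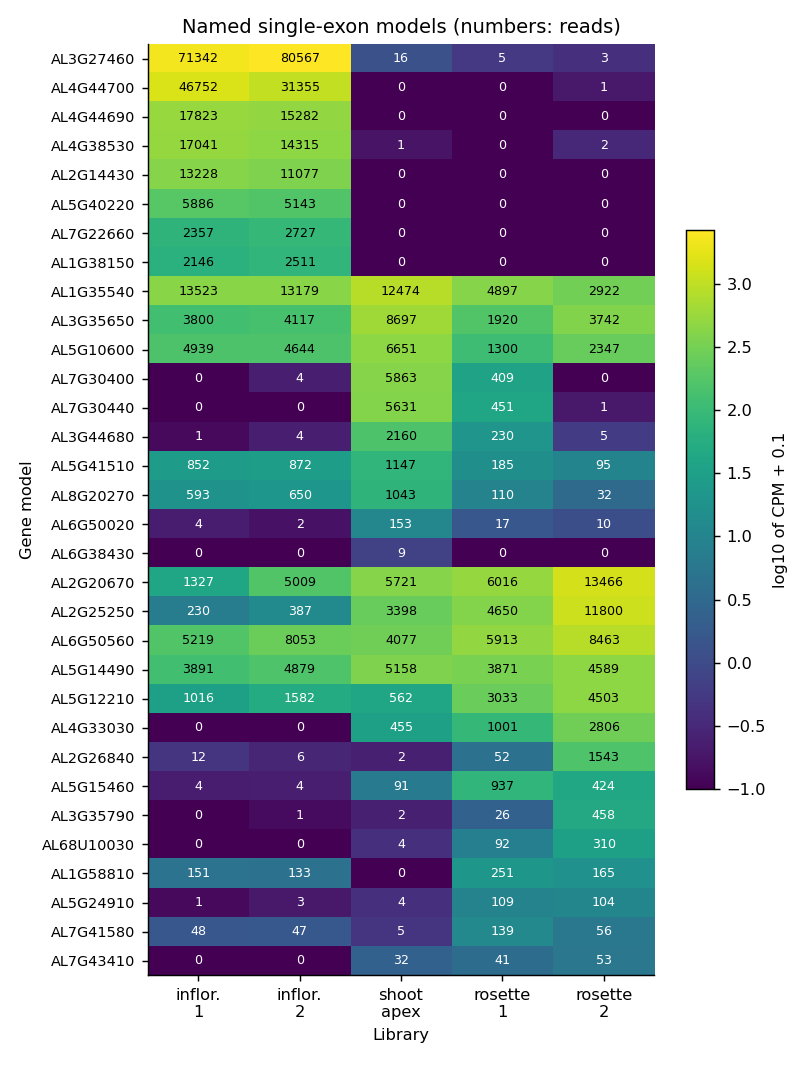
Reads (numbers) and level (colour, log10 of CPM + 0.1) in each library for the named models other than those chosen for their length or their place in a run, ordered by the tissue with the highest mean. The upper 8 models have 2146 to 80567 reads in inflorescences and at most 16 in any other library, while models such as AL1G35540 and AL5G14490 have 2922 to 13523 reads in all 5.

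Models that fell in inflorescences were fewer and often uneven between the rosette libraries. AL2G25250 (scaffold 2, 12783113 to 12783591, 79 codons), between neighbouring *A. thaliana* orthologs, had 230 and 387 reads in inflorescences, 3398 in the apex and 4650 and 11800 in rosettes, with a log2 fold change of -6.35 in inflorescences relative to rosettes (SE 0.79, adjusted p = 0.00794, edgeR). AL4G33030 (scaffold 4, 18100997 to 18101805, 47 codons) had no read in inflorescences, 455 in the apex and 1001 and 2806 in rosettes, at least 1957-fold lower in inflorescences than in rosettes (adjusted p = 0.00984). AL5G15460 (scaffold 5, 3144142 to 3148918, 1464 codons) had 4 and 4 reads in inflorescences, 91 in the apex and 937 and 424 in rosettes, and was lower in inflorescences by log2 -8.85 (SE 0.51, adjusted p = 0.00245). It lies between orthologs of AFB2, an auxin receptor, and PAD3, which makes the phytoalexin camalexin. AL7G43410 (scaffold 7, 18574880 to 18575499, 113 codons) had no read in inflorescences, 32 in the apex and 41 and 53 in rosettes (adjusted p = 0.00775). The models with the largest changes were named only if the libraries of the tissues did not overlap.

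A smaller group was far higher in rosette 2 than in rosette 1. AL2G26840 (scaffold 2, 13593457 to 13594282, 169 codons) had 12 and 6 reads in inflorescences, 2 in the apex and 52 and 1543 in rosettes (adjusted p = 0.0482 against rosettes, edgeR). On one side, its nearest model with an ortholog is that of AP1, a floral meristem identity gene, with AL2G26820 in between. AL3G35790 (scaffold 3, 9884376 to 9885236, 35 codons) had 0 and 1 reads in inflorescences, 2 in the apex and 26 and 458 in rosettes (adjusted p = 0.0361). At its place *A. thaliana* has PCC1, a small gene induced by pathogens and under the clock. AL68U10030 (unanchored scaffold 68, 34042 to 34431, 55 codons) had no read in inflorescences, 4 in the apex and 92 and 310 in rosettes (adjusted p = 0.0186). AL5G12210 (scaffold 5, 1228927 to 1230659, 502 codons) was more even, with 1016 and 1582 reads in inflorescences, 562 in the apex and 3033 and 4503 in rosettes, with a log2 fold change of -3.12 (SE 0.43, adjusted p = 0.0102).

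The shoot apex, with 1 library, gave fewer calls. Relative to rosettes, 24 of the 831 models rose (2.89%, where 2.11% of all tested models rose) and 25 fell (3.01%, where 6.03% of all tested models fell). Without inflorescence 1 or inflorescence 2, no model was called in this comparison by edgeR, with 114 and 112 models at an unadjusted p under 0.05. Without rosette 1 or rosette 2, rises were less frequent in the set than among all tested models, as they were with library totals (14.7%, against 21.5%). The largest rises were moderate. AL6G50020 (scaffold 6, 24010392 to 24011564, 306 codons) had 153 reads in the apex, against 17 and 10 in rosettes, with 4 and 2 in inflorescences (log2 fold change 3.12, SE 0.46, adjusted p = 0.0383). AL8G20270 (scaffold 8, 11382178 to 11383582, 393 codons) had 1043 reads in the apex, against 110 and 32 in rosettes (log2 fold change 3.53, SE 0.59, adjusted p = 0.0448). AL5G41510 (scaffold 5, 19930153 to 19931637, 321 codons), beside the ortholog of the cyclin CYCP3;2, had 1147 reads in the apex, against 185 and 95 in rosettes (log2 fold change 2.67, SE 0.32, adjusted p = 0.032). It was also lower in inflorescences, with 852 and 872 reads, than in the apex (adjusted p = 0.0487).

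Among the models that fell in the apex, AL1G58810 (scaffold 1, 27850992 to 27851454, 81 codons), near the ortholog of ABA2, an enzyme of abscisic acid synthesis, had no read in the apex, against 251 and 165 in rosettes, with 151 and 133 in inflorescences. It was at least 90.2-fold lower in the apex than in rosettes (adjusted p = 0.0318, edgeR). AL5G24910 (scaffold 5, 12819265 to 12820011, 185 codons) had 4 reads in the apex, against 109 and 104 in rosettes, with 1 and 3 in inflorescences (adjusted p = 0.0335). AL7G41580 (scaffold 7, 14565330 to 14568110, 823 codons) had 5 reads in the apex, against 139 and 56 in rosettes, with 48 and 47 in inflorescences (adjusted p = 0.0432).

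Some of the highest levels in the apex were shared with rosette 1 alone. AL7G30400 (scaffold 7, 8616161 to 8616824, 115 codons) had 5863 reads in the apex, against 409 in rosette 1 and 0 in rosette 2, with 0 and 4 in inflorescences. AL7G30440 (scaffold 7, 8632059 to 8632513, 57 codons) had 5631 reads in the apex, against 451 in rosette 1 and 1 in rosette 2, with none in inflorescences. AL3G44680 (scaffold 3, 19124340 to 19125014, 163 codons) had 2160 reads in the apex, against 230 in rosette 1 and 5 in rosette 2, with 1 and 4 in inflorescences. At its place *A. thaliana* has PR1, a secreted protein induced by salicylic acid in defence. None of the 3 passed the test against rosettes (adjusted p 0.178 to 0.297, edgeR), and in each the rosette libraries were far apart. AL3G45010 (scaffold 3, 19398501 to 19400011), chosen after its values were seen as the only other model with at least 50 reads in rosette 1 and at most 1 in rosette 2, had 111 reads in the apex, against 105 and 1 in rosettes, with none in inflorescences.

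Between inflorescence and shoot apex, 77 models rose in inflorescences (9.27% of the 831, where 8.74% of all tested models rose) and 37 fell (4.45%, where 3.99% of all tested models fell). These shares were close to those of all tested models, as was the median log2 fold change of 0.16 against 0.08. AL4G44700, AL4G44690 and AL2G14430, given above, had the largest rises. The largest falls were in AL4G33030, at least 338-fold lower in inflorescences than in the apex (adjusted p = 0.0342), AL7G43410, at least 23.8-fold lower (adjusted p = 0.0267), and AL3G44680 (adjusted p = 0.0498, edgeR). Without inflorescence 1 or inflorescence 2 no model was called, in this set or among all tested models. Without rosette 1 or rosette 2, rises were less frequent in the set than among all tested models, the opposite order. The comparison shares its inflorescence and apex libraries with the 2 before.

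By coding size, given as a description, the smallest group had fewer rises than falls in inflorescences relative to rosettes. Of the 71 tested models under 50 codons, 9 rose (12.7%) and 15 fell (21.1%), with a median log2 fold change of -0.21, where 17.6% of all tested models rose and 16.7% fell. The other size groups had like shares of rises, with 22.6% of 217 models of 50 to 99 codons, 22.5% of 307 models of 100 to under 300 codons and 23.7% of 236 models of 300 codons or more. Their shares of falls were 10.1%, 14.3% and 10.6%. Models with 300 codons or more took 36.2% and 35.4% of the reads of the set in inflorescences, 13.3% in the apex and 22.3% and 17.4% in rosettes. The nearest neighbouring model, where it could be tested, was called higher in inflorescences than in rosettes for 38 of 152 models that rose, 11 of 87 that fell (12.6%) and 64 of 434 that were not called (14.7%). It was called lower for 14.5% of the models that rose, 31.0% of those that fell and 10.6% of those not called. Shared calls of neighbours were thus more frequent in the direction of the model itself, and the part of reads that run over from a neighbour was not tested.

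Expression in 1 tissue only was common, and the tissue was the inflorescence. With at least 5 reads in both inflorescence libraries and none in the other 3, 164 models (16.2% of the expressed ones) were restricted to inflorescences, 1 to the shoot apex (AL6G38430, scaffold 6, 12689161 to 12689728, with 9 reads) and 0 to rosettes. The restricted share of expressed models was lower in the other sets, with 395 of 3949 multi-exon models without ortholog, 7.77% of single-exon models with an ortholog and 3.63% of multi-exon models with an ortholog. The inflorescence libraries were the deepest, so having no read is easier to meet in the apex and the rosettes than in the inflorescences. The part of depth in the difference between the tissues was not tested. Of the 164, chosen for their inflorescence reads, 147 had a mean level there above the floor of 3 reads in every library. With up to 2 reads allowed elsewhere the count was 230, and with at least 10 reads in both inflorescence libraries 115. The index tau, which is 0 for equal means in the 3 tissues and 1 for expression in 1 of them, had a median of 0.64 among the 831 tested models, against 0.46 in tested multi-exon models without ortholog, 0.56 in single-exon and 0.41 in multi-exon models with an ortholog. Of the 214 models with a tau above 0.95, 199 were highest in inflorescences. The 135 restricted models in the fit are among these by definition, and they passed the filter through their inflorescence reads. The count is thus in large part the same finding as the restriction and no separate evidence of it. These comparisons of sets are counts of models and were not tested.

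Most of the restricted models were weak, and they were weaker in inflorescence 1 than in inflorescence 2. Their median mean level was 0.931 CPM, and 14 exceeded 10 CPM. Of the 135 that could be tested, 67 were called higher than in rosettes. That direction was fixed by choosing models without reads in rosettes, so the count is no test of the restriction. The restricted models made up 11.3% of the reads of the set in each inflorescence library, most of them from the few strong models above. The CPM in inflorescence 2 exceeded that in inflorescence 1 by a median factor of 1.49, with quartiles of 0.945 and 2.84, and by more than 2 in 70 of 164 models (42.7%), against 10.3% of the other models in the fit and 5.67% of all models in the fit. Among the 62 restricted models with at least 300 codons the median factor was 2.38. Of the marker lists in inflorescence 2 and inflorescence 1, pollen summed to 129 and 118 CPM, tapetum to 490 and 647 CPM, floral identity to 1397 and 1531 CPM and meristem to 129 and 123 CPM. The part of these cell types in the difference between the libraries was not tested.

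**Figure D5:**
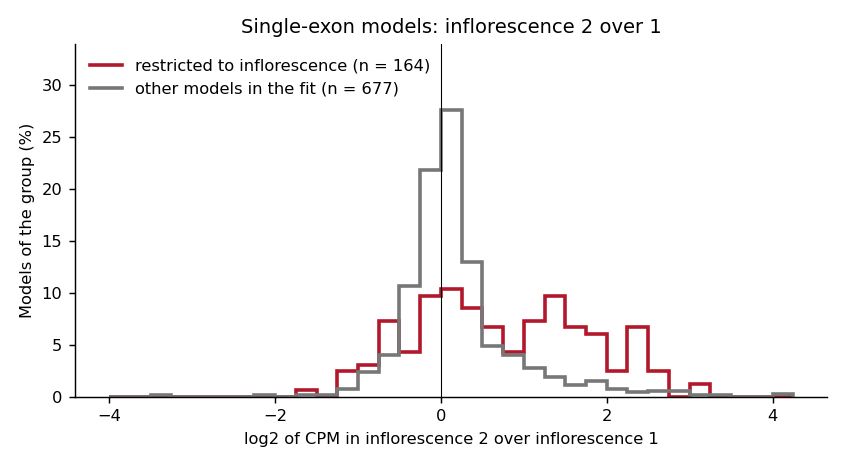
Distribution of the log2 ratio of CPM in inflorescence 2 over inflorescence 1 for the 164 models restricted to inflorescences (at least 5 reads in both inflorescence libraries and none elsewhere) and the 677 other models in the fit with reads in both libraries, as a percentage of each group. The restricted models have a second rise to the right of 1, where the other models are few.

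The 3 longest runs of adjacent models differed in their levels in the inflorescence libraries. In the run on scaffold 6, AL6G40770 and AL6G40780 have 172 codons each and AL6G40790 and AL6G40800 have 272 codons each (17924892 to 17944263 in all). Their reads in inflorescence 1 and 2 were 4 and 26, 5 and 31, 13 and 74, and 11 and 66, with none in the apex and the rosettes, and none of the 4 passed the test against rosettes (adjusted p 0.0985 to 0.186, edgeR). The run on scaffold 3, AL3G28430 to AL3G28460 (6833553 to 6846675, 379, 310, 379 and 381 codons), lies between the orthologs of PnsB3 and TRZ4, which are neighbours in *A. thaliana*. Its members had 0 and 12, 0 and 0, 0 and 13, and 1 and 6 reads in inflorescence 1 and 2, and none in the apex and the rosettes. In the run on scaffold 1, reads were similar in the inflorescence libraries: AL1G34560 (9525161 to 9525812, 131 codons) had 46 and 43 reads there and 0 elsewhere (at least 5.01-fold higher than in rosettes, adjusted p = 0.0265), and AL1G34570 (9547367 to 9548360, 116 codons) had 157 and 123 reads in inflorescences, 85 in the apex and 27 and 14 in rosettes (adjusted p = 0.0632).

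The other 2 models of the scaffold 1 run, AL1G34580 and AL1G34590, had identical counts of 20, 22, 13, 2 and 0 in inflorescence 1 and 2, shoot apex and rosette 1 and 2, and the same coding size of 212 codons. Such twins, with equal coding length, equal counts in each of the 5 libraries and at least 20 reads in all, were looked for among all models, and 7 pairs with 11 members were found. Among them were AL240U10010 on the unanchored scaffold 240 and AL2G12450 on scaffold 2 (175 codons, 11, 13, 22, 29 and 29 reads), and AL3G34960 on scaffold 3 and AL662U10010 on the unanchored scaffold 662 (239 codons, 10, 26, 0, 0 and 0 reads). AL39U10040 on the unanchored scaffold 39 (103 codons, 42, 130, 8, 172 and 67 reads) shared its counts with AL4G45610, a single-exon model with an ortholog, and AL5G12980 (702 codons, 53, 47, 29, 32 and 21 reads) with AL5G12940, a multi-exon model with an ortholog. For these pairs the reads of each copy cannot be told apart, and their values are uncertain.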

How the data were processed

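For each gene model of *A. lyrata* the authors deposited raw counts of reads, and a second, scaled value per library in the same table was not used. The submitters' processing notes name TAIR10, FastQC and TopHat without versions. The methods describe single-end, unstranded poly-A reads aligned to the MN47 reference assembly, to which all coordinates of the deposited annotation refer. The tool that counted reads, and its rule for reads that fit several copies, is not given in the sources used here. The *A. thaliana* count table was not used.

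Every one of the 32793 models with counts was found in the annotation at identical coordinates. Levels are CPM scaled with TMM factors, per kb of exon where genes are compared. All 5 libraries entered 1 fit with edgeR 4.0.16 (filterByExpr, TMM, glmQLFit, glmQLFTest, 1 mean per tissue, R 4.3.3), with Benjamini-Hochberg adjustment over 25465 tested models and a threshold of 0.05. The fit had 2 residual degrees of freedom. Each standard error comes from the log2 fold change and its F statistic. Lower bounds of folds use a floor of 3 reads per library. Intervals of shares are exact (Clopper-Pearson). Depth was 28347972 and 26047279 reads in inflorescences, 10556736 in the apex and 14440792 and 13340336 in rosettes. Flanking *A. thaliana* genes, their order and symbols come from the TAIR10.1 annotation. Only its protein coding genes were used, so that neighbours in *A. thaliana* are neighbours among these. Flanking orthologs are those of the nearest models on either side that list one, so that models without ortholog can lie in between. Where a flanking model lists several orthologs, the first was taken.

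Named are the 6 models with the highest mean CPM per tissue, the 6 largest called changes in each direction between inflorescence and rosette and the 3 largest in the other comparisons (mean log2 CPM above 1, libraries not overlapping), the 5 restricted models with most reads per tissue, the 3 longest and the shortest coding regions, and the longest runs, of which 3 tie. The models and lists were chosen with earlier results of these data known. Alternatives were RLE size factors, library totals, other filters, DESeq2 1.42.0, a replicate block and leaving out libraries.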

Additional observations from a re-analysis of the deposited data

How the results depend on the processing

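Counts of called models kept within 1.5 times under RLE size factors, no filter, a stricter filter, without overlapping models and without twins (like the leave-one-out of restricted counts, an alternative chosen after seeing the data). With library totals only, 307 rose in inflorescences and 122 in the shoot apex relative to rosettes, where rises were 79.3% of the calls in inflorescences (63.3% with TMM), against 77.5% over all tested models (51.3% with TMM), and 86.5% in the apex (49.0% with TMM), against 83.0% over all tested models (26.0% with TMM). DESeq2 called 47 higher (5.66%, against 5.89% of all tested models) and 57 lower (6.86%, against 11.6%) in the apex relative to rosettes. The order of the shares of rises was thus the opposite of that with edgeR. In inflorescences relative to the apex, DESeq2 called 61 lower (7.34%, against 6.99% of all tested models). Leaving out single libraries gave 23 to 256 higher and 8 to 165 lower for inflorescence against rosette, 0 to 122 and 0 to 94 for apex against rosette, and 0 to 212 and 0 to 158 for inflorescence against apex. The fits without an inflorescence or a rosette library have 1 residual degree of freedom, from the other tissue. Samples with the same number in rosettes and inflorescences did not deviate together (correlation 0.068). With the replicate number as a block, 138 models rose (19.0%, against 14.5% of all tested models) and 88 fell (12.1%, against 14.4%) in inflorescences relative to rosettes. Models restricted to the apex numbered 0 with at least 10 reads and 11 with up to 2 reads elsewhere (1 to 4 without single libraries), and those restricted to rosettes 4 with up to 2 reads elsewhere (0 to 6 without single libraries). The share of reads in the apex was 1.89% without the 5 models of the table with most reads. Of the log2 fold changes of named models under alternatives, 84 lost and 90 gained a call, and no call was reversed. The other 1017 kept their side of the threshold, but a change of sign was not counted where neither fit gave a call. Depth limits what can be said of models with few reads in the apex and the rosettes, where 3 reads are 0.215 to 0.311 CPM.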
